A study of Mus musculus with 13 samples.

Results

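The genes described here are 5 lysine methyltransferases known from striated muscle, *Mettl21c*, *Mettl21e*, *Smyd1*, *Smyd2* and *Smyd3*, out of 17924 genes in the deposited tables and 17069 that were tested. They were selected on measured values, the differences between the *mdm* muscles, above all that of *Mettl21c* between soleus and psoas. Their levels in the muscles are therefore a description, and where calls of the test across all genes are given for them, nothing is read from these. All 5 passed the filter on low counts, with between 12 and 20749 reads per library.

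The study sequenced total RNA of whole muscles of mice with muscular dystrophy with myositis (*mdm*), a spontaneous recessive deletion in the titin gene that removes part of the N2A region, and of mice without it. The libraries used here are the 13 labelled *mdm*, and those of wild-type mice are not analysed here. They comprise 5 libraries of extensor digitorum longus (EDL), a fast hindlimb muscle, 5 of psoas, a muscle of the lower back and hip, and 3 of soleus, a slow hindlimb muscle. All came from a colony of the strain B6C3Fe a/a-Ttn mdm/J and from mice killed for other studies, no treatment is given, and every group carries the titin deletion. EDL replicates 1, 2, 4 and 5 came from mice of 38 days and replicate 3 from a mouse of 42 days. Psoas replicate 1 came from a mouse of 29 days, replicates 2, 4 and 5 from mice of 38 days and replicate 3 from a mouse of 42 days, and the soleus mice were 33, 36 and 38 days old. The labels also give each library a condition code from T1 to T6, which they do not explain.

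Lysine methyltransferases attach methyl groups to lysines of histones or other proteins. METTL21 enzymes belong to the seven-beta-strand class and act on non-histone proteins, among which the chaperone Hspa8 and the ATPase Vcp have been reported for the protein of *Mettl21c*, an enzyme described in slow fibres. The SMYD enzymes carry a SET domain split by a MYND zinc finger. Smyd1 is restricted to heart and skeletal muscle and works with skNAC, a muscle product of *Naca*, and with Hsp90 and Unc45b in sarcomere assembly, Smyd2 methylates Hsp90 and is found with it at the N2A region of titin, and Smyd3 methylates Map3k2 and has been linked to transcription of *Mstn* and *Met*.

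All 5 genes lie on the reverse strand of GRCm38 (GENCODE M21). *Mettl21c* (ENSMUSG00000047343, chr1:44009408-44020034) and *Mettl21e* (ENSMUSG00000046828, chr1:44204070-44218961) are neighbours on chromosome 1, which also holds *Smyd2* (ENSMUSG00000026603, chr1:189880492-189922363) and *Smyd3* (ENSMUSG00000055067, chr1:178951960-179518041). *Smyd1* (ENSMUSG00000055027) is at chr6:71213940-71322233. The coding stretches in which the neighbouring paralogues are most alike within 1 exon are shown, because they bear on whether reads could be counted on the wrong paralogue. Both lie in exon 5 of 5, on the reverse strand, at chr1:44009959-44010033 for *Mettl21c* and chr1:44206679-44206753 for *Mettl21e*, and capitals mark the 23 of 75 bases that differ.
Mettl21c: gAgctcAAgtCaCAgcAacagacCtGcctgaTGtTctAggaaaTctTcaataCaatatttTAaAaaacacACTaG
Mettl21e: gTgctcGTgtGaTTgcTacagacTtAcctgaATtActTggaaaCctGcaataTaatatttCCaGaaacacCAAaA
No run of 75 bases, the read length, was shared between transcripts of *Mettl21c* and *Mettl21e*, and the longest shared run was 13 bases. The same held for the 3 pairs of *Smyd* genes, whose longest shared run was 13 or 14 bases.

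Soleus stood apart for *Mettl21c*. The normalized read counts (counts divided by the size factor of the library) were 631, 281, 342, 333 and 345 in EDL replicates 1 to 5. They were 268, 151, 119, 192 and 146 in psoas replicates 1 to 5, and 5002, 3663 and 7698 in soleus replicates 1 to 3. Every soleus library was above every EDL library, and every EDL library was above every psoas library. The mean was 387 ± 139 in EDL (SD, n = 5), 175 ± 58.2 in psoas (SD, n = 5) and 5454 ± 2055 in soleus (SD, n = 3). In the fit across all genes, the log2 fold change was 3.82 (standard error 0.33) for soleus against EDL, 4.96 (0.34) for soleus against psoas and -1.14 (0.28) for psoas against EDL. Leaving out each library in turn moved these to between 3.50 and 4.07, between 4.63 and 5.17, and between -1.35 and -0.89. In whole muscles, more cells that express a gene and more RNA per cell cannot be told apart.

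**Figure D1:**
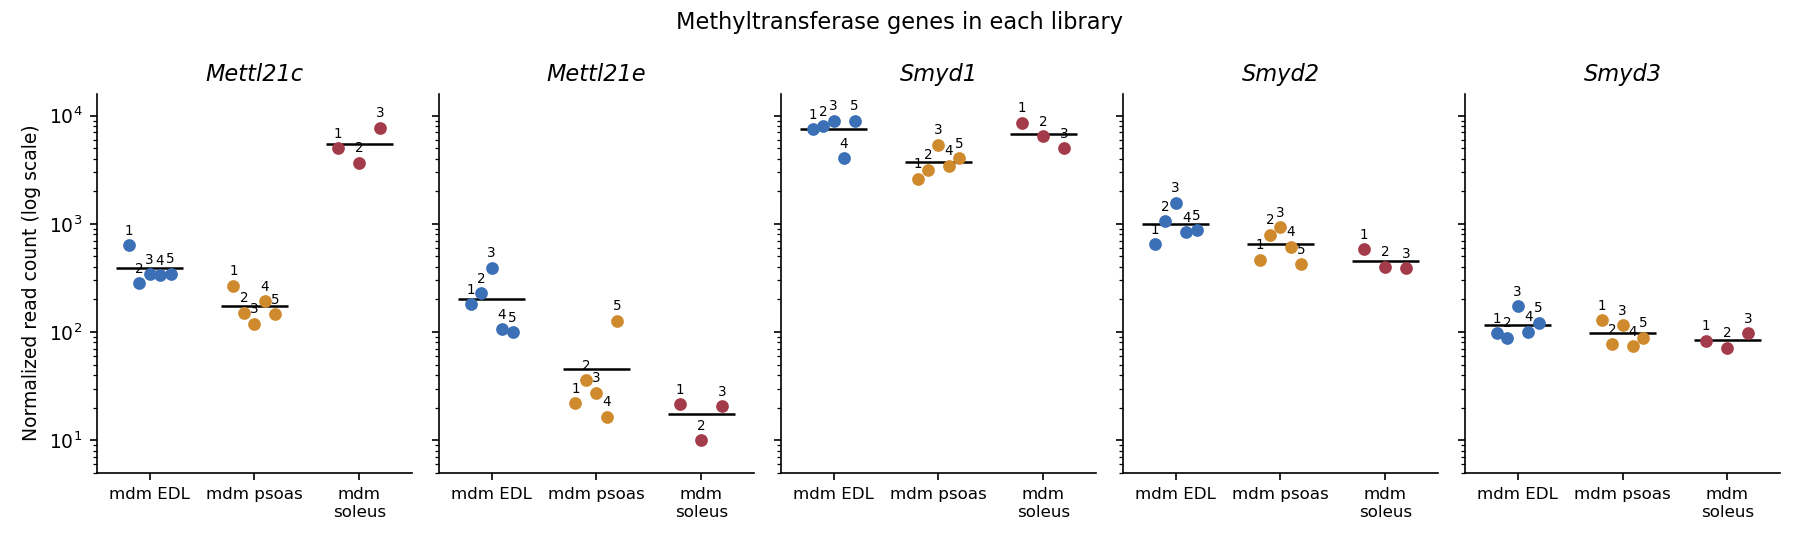
Normalized read counts (log scale) of the 5 genes in each *mdm* library of EDL, psoas and soleus, with replicate numbers above the points and the mean of each muscle as a line. *Mettl21c* was between 3663 and 7698 in soleus and at most 631 elsewhere, while *Smyd3* lay between 71.4 and 173 in all 13 libraries.

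*Mettl21e*, the paralogue, had its highest values in EDL. Its normalized counts were 180, 228, 392, 107 and 100 in EDL replicates 1 to 5, 21.9, 35.8, 27.5, 16.5 and 127 in psoas replicates 1 to 5, and 21.5, 9.998 and 20.6 in soleus replicates 1 to 3. EDL and soleus did not overlap, and psoas replicate 5 lay within the range of EDL while the other 4 psoas libraries lay below it. The means were 202 ± 119 in EDL (SD, n = 5), 45.7 ± 45.9 in psoas (SD, n = 5) and 17.4 ± 6.41 in soleus (SD, n = 3). The log2 fold change was -2.15 (standard error 0.55) for psoas against EDL, -3.53 (0.73) for soleus against EDL and -1.38 (0.68) for soleus against psoas. Without psoas replicate 5, the difference between psoas and EDL was -2.98 and that between soleus and psoas -0.56. These counts were low, with 19 to 153 reads in psoas and 12 to 52 in soleus.

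The balance of the paralogues therefore differed between muscles. Per kilobase of annotated exon, the ratio of *Mettl21c* to *Mettl21e* was between 0.804 and 3.23 in EDL (median 2.88), between 1.06 and 11.3 in psoas (median 3.99) and between 214 and 344 in soleus (median 338). EDL replicate 3 was the library with more *Mettl21e* than *Mettl21c* per kilobase, and psoas replicate 5 had nearly equal levels.

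**Figure D2:**
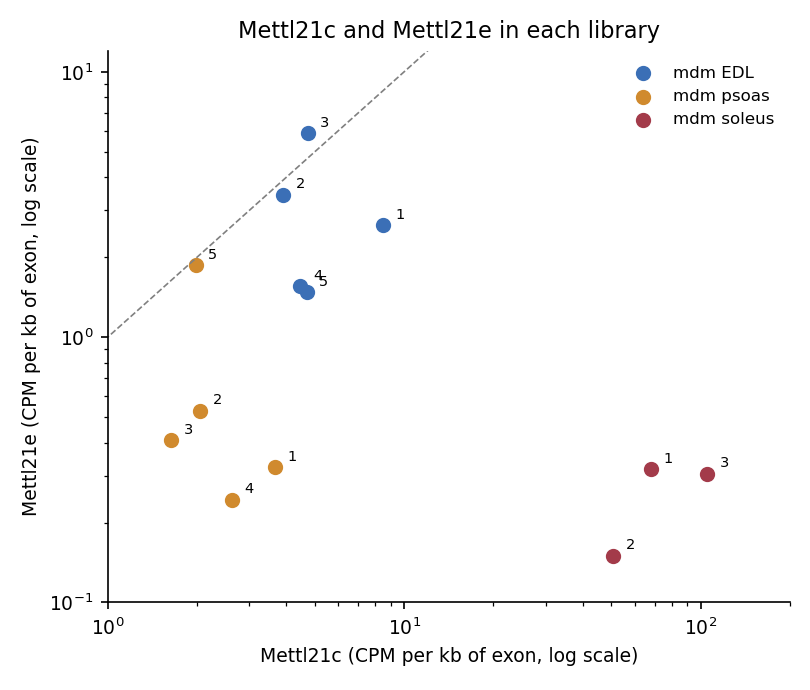
CPM per kilobase of exon of *Mettl21c* (x axis) and *Mettl21e* (y axis) in each *mdm* library, both on log scales, with replicate numbers beside the points and a dashed line where the levels are equal. The 3 soleus libraries lie far to the right at low *Mettl21e*, with ratios of 214 to 344.

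*Smyd1*, the muscle-restricted SMYD gene, was lowest in psoas. Its normalized counts were 7454, 7963, 8949, 4017 and 8962 in EDL replicates 1 to 5, 2612, 3158, 5401, 3449 and 4018 in psoas replicates 1 to 5, and 8586, 6464 and 5024 in soleus replicates 1 to 3. EDL replicate 4 lay inside the range of psoas, the other 4 EDL libraries lay above it, and soleus overlapped with both muscles. The means were 7469 ± 2036 in EDL (SD, n = 5), 3728 ± 1064 in psoas (SD, n = 5) and 6692 ± 1792 in soleus (SD, n = 3). The log2 fold change was -1.01 (standard error 0.27) for psoas against EDL and 0.85 (0.30) for soleus against psoas. For soleus against EDL it was -0.16 (0.31), and 0.02 without soleus replicate 3, so that these muscles differed by less than the spread of the libraries.

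*Smyd2*, the gene of the Hsp90 methyltransferase, had its highest mean in EDL and its lowest in soleus, and psoas overlapped with both. Its normalized counts were 651, 1058, 1561, 835 and 876 in EDL replicates 1 to 5, 466, 790, 934, 616 and 424 in psoas replicates 1 to 5, and 579, 401 and 390 in soleus replicates 1 to 3. All soleus libraries were below all EDL libraries. The log2 fold change was -0.63 (standard error 0.27) for psoas against EDL, -1.12 (0.33) for soleus against EDL and -0.49 (0.32) for soleus against psoas. The antisense gene *Gm37422* shares 814 exon bases with *Smyd2* and had normalized counts of 15.5 to 86.5. Whether strand was used in the counting is not stated, so reads of this stretch cannot be assigned to either gene with certainty.

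*Smyd3*, the broadly expressed member, varied least. Its normalized counts were 97.9, 88.7, 173, 100.2 and 122 in EDL replicates 1 to 5, 129, 77.4, 115, 73.8 and 88.7 in psoas replicates 1 to 5, and 82.8, 71.4 and 98.0 in soleus replicates 1 to 3. The muscles overlapped throughout. The log2 fold change was -0.25 (standard error 0.24) for psoas against EDL, -0.46 (0.28) for soleus against EDL and -0.21 (0.28) for soleus against psoas. The last was 0.004 within code T4, 0.28 within code T6 and 0.17 with the code as a block, so its direction did not hold within codes.

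**Figure D3:**
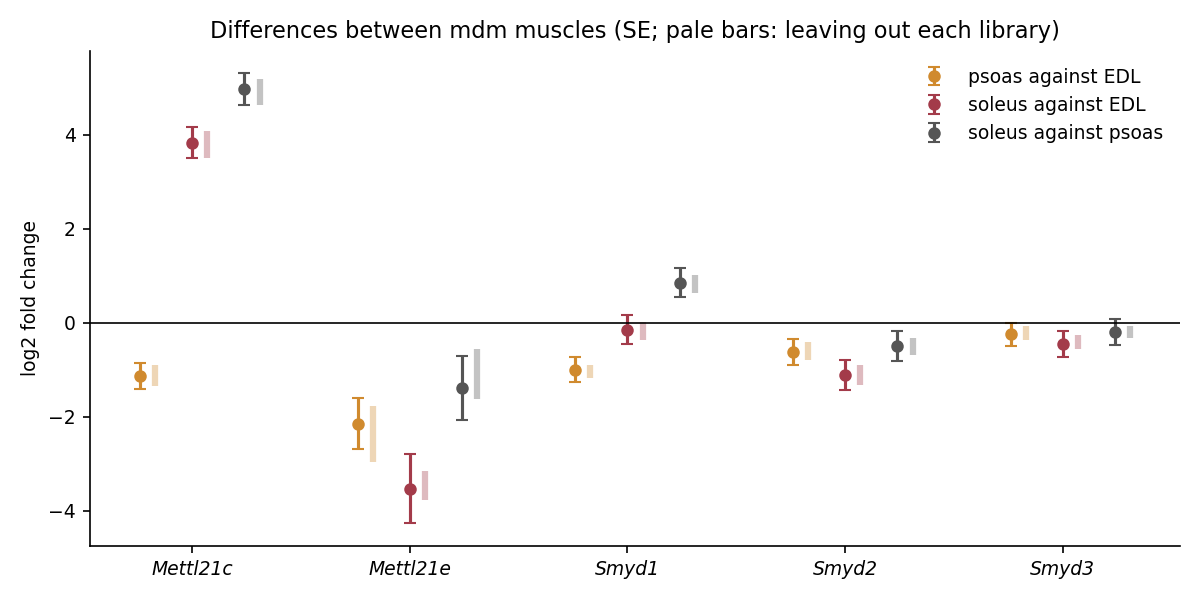
Log2 fold changes of the 5 genes between *mdm* muscles, with the first-named muscle above 0 when higher; error bars are the standard error of the fit, and pale bars span the values when each library was left out in turn. *Mettl21c* reached 4.96 for soleus against psoas, *Mettl21e* reached -3.53 for soleus against EDL, and the highest value above 0 of another gene was 0.85, for *Smyd1* in soleus against psoas.

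The edgeR test, at an adjusted p below 0.01 and a log2 fold change above 1 in size, called *Mettl21c* for soleus against EDL, where 0.978% of all genes tested were called, and for soleus against psoas, where 0.0762% were. No other member was called in either, and 0 of the 5 were called for psoas against EDL, where 4.93% of all genes were. DESeq2 called other numbers of genes in all 3 comparisons, given with the alternatives. By libraries that do not overlap, 1 of 5 members was lower in psoas than in EDL (6.56% of all genes tested were), 1 was higher (5.33%) and 2 were lower (5.72%) in soleus than in EDL, and 1 was higher in soleus than in psoas (4.97%). Since the members were chosen with these contrasts known, nothing is read from these counts.

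The differences of *Mettl21c* and *Mettl21e* kept their direction within each condition code shared by the muscles. Within codes, *Mettl21c* differed between soleus and EDL by 3.90 (T4) and 4.51 (T6) in log2 CPM (counts scaled to a common library size), and between soleus and psoas by 4.83 (T4) and 5.52 (T6). Between psoas and EDL the values were -0.93 (T4), -1.52 (T5) and -1.002 (T6). For *Mettl21e*, psoas minus EDL was -2.66 (T4), -3.78 (T5) and -1.12 (T6), the last including psoas replicate 5. *Smyd1* and *Smyd2* were also lower in psoas than in EDL within each of the 3 codes, by 0.68 to 1.37 and by 0.45 to 0.75 in size.

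Levels of different genes were compared as CPM per kilobase of exon. In EDL the order was *Smyd1* (96.6 ± 27.0; SD, n = 5), *Smyd2* (21.6 ± 7.76), *Mettl21c* (5.26 ± 1.85), *Mettl21e* (2.998 ± 1.80) and *Smyd3* (0.744 ± 0.223), and only *Mettl21c* and *Mettl21e* overlapped as neighbours. In psoas the order was the same, at 48.1 ± 13.9, 13.9 ± 4.69, 2.39 ± 0.794, 0.675 ± 0.677 and 0.619 ± 0.156 (SD, n = 5), with overlap of *Mettl21e* with both of its neighbours. In soleus *Mettl21c* (74.6 ± 27.8; SD, n = 3) came next to *Smyd1* (86.7 ± 23.0), which it exceeded in 1 of 3 libraries, and their ranges overlapped. *Smyd2* (9.90 ± 2.26), *Smyd3* (0.539 ± 0.0826) and *Mettl21e* (0.258 ± 0.0938) followed without overlap. Among 13924 protein-coding genes, this placed *Mettl21c* at percentile 97.0 in soleus, 67.8 in EDL and 47.9 in psoas, while *Smyd1* stayed between percentiles 96.2 and 97.6.

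The spread within muscles, which the choice of the genes did not use, also differed between members. The pooled standard deviation of log2 CPM was 0.458 for *Mettl21c*, 0.438 for *Smyd1*, 0.457 for *Smyd2* and 0.344 for *Smyd3*, beside a median of 0.455 over all genes tested. For *Mettl21e* it was 0.904, above that of 87.7% of the genes. Over the 13 libraries, Pearson's r between *Mettl21c* and *Mettl21e* was -0.39, and -0.10 after the muscle means were removed. These and the following r describe libraries that share muscle, depth and codes.

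Soleus lay above all other libraries for *Mettl21c* and for 9 of the 11 slow fibre genes. The pooled standard deviations of the 11 ran from 0.483 for *Casq2*, 0.490 for *Myoz2* and 0.508 for *Atp2a2*, close to that of *Mettl21c*, up to that of *Myh7*. *Myh7*, the slow myosin heavy chain, was between 98825 and 182496 in soleus and between 271 and 20950 in EDL and psoas, with a pooled standard deviation of 1.88 against 0.458 for *Mettl21c*. The psoas library with the highest *Myh7*, replicate 3, had the lowest *Mettl21c* (119). EDL replicates 1 and 5 had similar *Myh7*, 11097 and 9798, and *Mettl21c* of 631 and 345. Over the 13 libraries, Pearson's r with *Mettl21c* was 0.775 for *Myh7*. Over the 11 slow fibre genes it ran from 0.480 for *Casq2* to 0.876 for *Tpm3*. How far *Mettl21c* follows the share of slow fibres was not tested. The lowest soleus library of *Mettl21c* exceeded the highest of EDL and psoas by 5.81 times. This ratio had rank 6 among the genes tested, leaving out genes at 0 in all EDL and psoas libraries. *Mettl21c* was chosen on this difference, so nothing is read from its rank. *Mettl21c* came after *Tecrl* (14.4), *Myl3* (7.84), *Gm34302* (7.33), *Myl2* (6.62) and *Tpm3* (6.22), genes named for this ranking after their values were seen. *Gm34302* was at most 4.68 in EDL and psoas, so it passed the filter on low counts only through soleus.

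**Figure D4:**
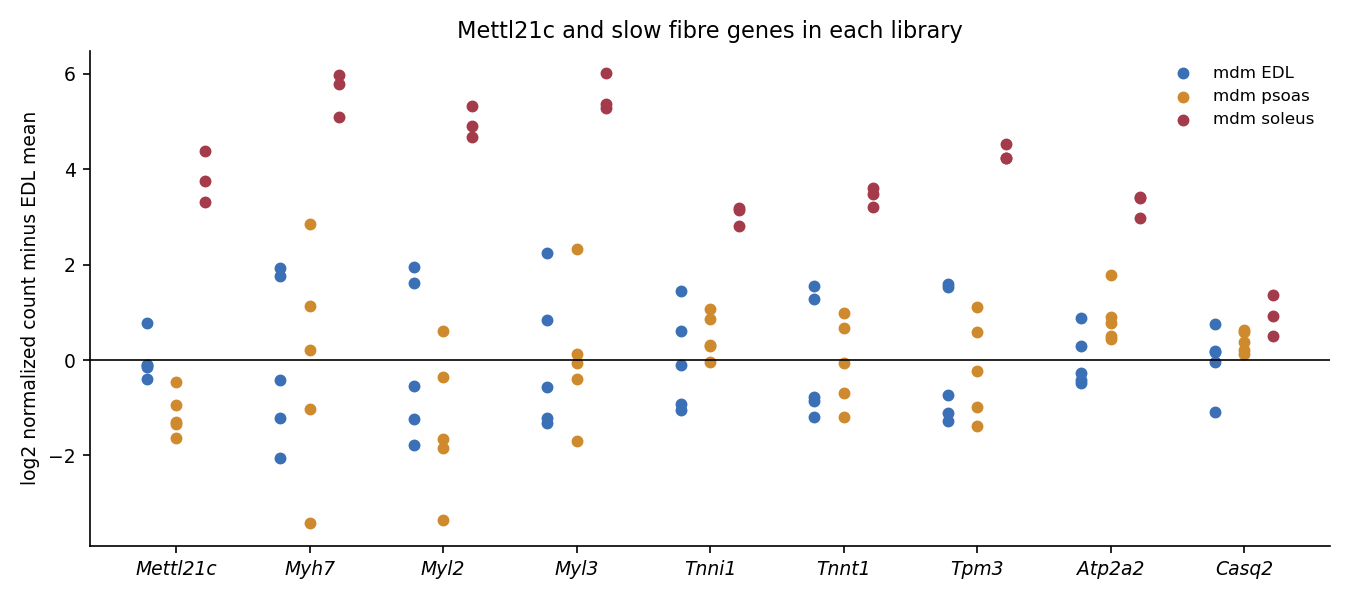
Log2 normalized counts of *Mettl21c* and 8 slow fibre genes in each *mdm* library, as the difference from the EDL mean of the gene. Soleus (red) lies above both other muscles for every gene but *Casq2*, and the EDL and psoas points of *Mettl21c* lie closer together than those of *Myh7*, whose pooled standard deviation was 1.88.

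Of the 11 slow fibre genes, 4 rose in soleus against EDL in the edgeR test and 0 fell, with a list median of 2.99 beside -0.03 over all genes. They were *Myl3* (4.92, standard error 0.91, adjusted p = 0.0088), *Tpm3* (3.79, 0.70, adjusted p = 0.0094), *Atp2a2* (3.19, 0.37, adjusted p = 0.00057) and *Tnni1* (2.76, 0.47, adjusted p = 0.0070). The calls of *Myl3*, *Tpm3* and *Tnni1* were lost in 10, 11 and 7 of the 13 fits that left out a library, at adjusted p up to 0.036. In soleus against psoas the edgeR test called 0 of the 11, although 10 had an unadjusted p under 0.05 and DESeq2 called 7. Of the 14 fast fibre genes, 7 fell in soleus against EDL, among them *Myh4* (-5.44, 0.92, adjusted p = 0.0066) and *Myh1* (-3.80, 0.47, adjusted p = 0.00099). Without soleus replicate 1, and likewise without soleus replicate 2, 1 of the 14 fell (*Tnnt3*), the call of *Myh4* was lost in 4 of the 13 fits that left out a library, and DESeq2 called 12. In psoas against EDL 7 fell as well, including *Myh4* (-4.18, 0.69, adjusted p = 0.0022) and *Myoz1* (-2.24, 0.40, adjusted p = 0.0032), in the comparison in which 4 of the 5 methyltransferase genes had log2 fold changes between -0.63 and -2.15. That count was 3 without EDL replicate 3, psoas replicate 1 or psoas replicate 2, 4 without EDL replicate 2, EDL replicate 5 or psoas replicate 3, and 12 with DESeq2, and *Myh4* and *Myoz1* were called in all 13 fits that left out a library. *Myh4*, the fastest myosin, was 36779 and 35035 in psoas replicates 5 and 4 and at most 12886 in the other psoas libraries. *Mettl21e* was 127 and 16.5 in these 2 libraries.

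Markers of other cell types moved with the muscles as well. The summed normalized count of 4 adipocyte markers was 32383 to 61635 in soleus, 3465 to 18700 in EDL and 10062 to 21512 in psoas, and 2 of the 4, *Adipoq* and *Cfd*, rose in soleus against EDL (edgeR adjusted p = 0.0073 and 0.0070). The sum of 4 mesothelial markers was 194 to 942 in psoas and 28.4 to 99.2 in EDL. All 4 of them rose in psoas against EDL (edgeR adjusted p up to 0.0042), and neither list had a marker at 0 in every library. Of 4 markers of regenerating fibres, *Myh8*, the perinatal myosin, fell in soleus against EDL (-1.85, 0.29, edgeR adjusted p = 0.0045) and against psoas (-2.56, 0.30, adjusted p = 0.0016), and *Myl4*, an embryonic light chain, rose in psoas against EDL (1.26, 0.28, adjusted p = 0.0092). Of 5 macrophage, 5 fibroblast, 4 endothelial and 3 blood markers, 0 were called by edgeR in any comparison, although in psoas against EDL all 3 blood markers had an unadjusted p under 0.05, with sums of 42.1 to 5147 in psoas and 69.7 to 481 in EDL. DESeq2 called 2 of these, *Hba-a1* and *Alas2*, and at most 1 gene of each other list had an unadjusted p under 0.05 in a comparison. In the 13 fits that left out a library, the calls of *Adipoq* and *Cfd* were lost in 8 and 7, that of *Myl4* in 11, and those of *Myh8* in 4 for soleus against EDL and in 3 for soleus against psoas. Those of *Adipoq*, *Cfd* and *Myh8* were lost in each fit without 1 of the soleus libraries. At least 3 of the 4 mesothelial markers were called in psoas against EDL in all 13. The skeletal muscle markers *Acta1*, *Ckm*, *Des*, *Mb*, *Myod1* and *Pax7* were detected in every library, and *Ckm* fell in psoas against EDL (-1.67, standard error 0.30, adjusted p = 0.0036) while *Myod1* rose (1.58, 0.23, adjusted p = 0.0014). The call of *Ckm* was lost without EDL replicate 3 and without psoas replicate 2. The part of these cells in the differences of the methyltransferase genes was not tested.

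The genes most like *Mettl21c* were ranked by Pearson's r of log2 CPM over the 13 libraries. The highest were *1700016C15Rik* (0.959), *Rp1* (0.913), *P3h2* (0.904), *Homer2* (0.902), *Tnfsf18* (0.901), *Inpp4b* (0.899), *Tpm3-rs7* (0.894), *Slc25a23* (0.888), *Gm34302* (0.886) and *Bdnf* (0.885). *Homer2*, a postsynaptic scaffold gene, had mean normalized counts of 208 ± 63.0 in EDL (SD, n = 5), 140.2 ± 51.6 in psoas (SD, n = 5) and 973 ± 77.9 in soleus (SD, n = 3). *Bdnf*, a neurotrophin gene, followed the order of *Mettl21c* at 59.9 ± 14.5, 34.4 ± 5.34 and 105 ± 20.4 in the same muscles. *1700016C15Rik*, *Rp1*, *Tnfsf18* and *Gm34302* were at means under 12 in EDL and psoas, where r rests on few reads. *Gm34302* passed the filter on low counts only through soleus, and other genes this low may have as well. The order of the ranking depends on the muscle means, since 0 of these 10 were among the 10 most alike once muscle means were removed. Within muscles, r of the 10 with *Mettl21c* ran from -0.33 for *Homer2* to 0.73 for *Tnfsf18*. The genes most like *Mettl21e* were *Smco1*, *Micu3* and *Car14* (0.923 to 0.934), those most like *Smyd1* were *Cab39*, *Blzf1* and *Cfap298* (0.949 to 0.967), those most like *Smyd2* were *Atp2b3*, *Arhgap10* and *Gm9869* (0.899 to 0.946), and those most like *Smyd3* were *Ciart*, *Gm37477* and *Rps6kb1* (0.842 to 0.869). Within muscles, r with *Smyd1* was still 0.934 for *Cab39*, which had mean normalized counts of 5674 in EDL and 3837 in psoas.

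No tested neighbour within 250 kb of *Mettl21c* or *Mettl21e* was called. Of all genes, edgeR called 4.93% in psoas against EDL, 0.978% in soleus against EDL and 0.0762% in soleus against psoas. A count of 0 among so few neighbours does not set them apart from other genes. Of 7 protein-coding genes that start within 250 kb of either gene, 6 were tested, *Uxs1*, *Tpp2*, *Tex30*, *Kdelc1*, *Bivm* and *Ercc5*, and 0 were called in any comparison by edgeR or by DESeq2, with 0 of them at an unadjusted p under 0.05. *Tex30* and *Kdelc1*, which lie between the paralogues, had log2 fold changes of 0.23 (standard error 0.27, adjusted p = 0.76) and 0.10 (0.25, adjusted p = 0.90) for soleus against EDL. *Ercc5*, a DNA repair gene next to *Mettl21e*, was at 497 ± 99.0 in EDL (SD, n = 5), 404 ± 70.4 in psoas (SD, n = 5) and 460 ± 73.8 in soleus (SD, n = 3).

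Substrates and partners of the enzymes were examined as a list of 10 genes. *Vcp*, the gene of a reported substrate of the METTL21C protein, was 8091 ± 1923 in EDL (SD, n = 5), 7339 ± 1871 in psoas (SD, n = 5) and 7691 ± 925 in soleus (SD, n = 3), and its log2 fold change for soleus against psoas was 0.07 (standard error 0.26, adjusted p = 0.92). *Hspa8*, the gene of the other, had 0.51 (0.28, adjusted p = 0.48) in the same comparison. The Hsp90 genes *Hsp90aa1* and *Hsp90ab1* had log2 fold changes between -0.36 and 0.33 in the 3 comparisons, and *Unc45b*, the myosin chaperone, between -0.61 and -0.12, with adjusted p of at least 0.29. *Hsp90aa1* was 13714 in EDL replicate 1 and 2534 to 3623 in the other EDL libraries, so its EDL mean depends on that library. It was 2910 to 5413 in psoas and 3863 to 5699 in soleus. *Naca* had 0.67 for psoas against EDL (0.20, adjusted p = 0.031). The counts are per gene, so its muscle product skNAC was not measured apart. *Ttn*, the gene with the *mdm* deletion, had -0.80 for soleus against psoas (0.42, adjusted p = 0.45).

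*Mstn*, the gene of the growth inhibitor myostatin, was the 1 called gene of this list. Its normalized counts were 551, 457, 1210.4, 106 and 48.7 in EDL replicates 1 to 5, 10.2, 9.08, 9.16, 46.9 and 55.5 in psoas replicates 1 to 5, and 2.90, 0.714 and 36.1 in soleus replicates 1 to 3. It fell in psoas against EDL (-4.21, standard error 0.95, edgeR adjusted p = 0.0096), although EDL replicate 5 lay below psoas replicate 5. The call was lost in 9 of the 13 fits that left out a library and with the replicate number as a block (adjusted p = 0.031). It was also lost with the condition code as a block and with no filter on low counts. Within code T6, EDL was at 106 and 48.7 and psoas at 46.9 and 55.5. *Map3k2*, the gene of a Smyd3 substrate, had 0.38 (0.22, adjusted p = 0.24) and *Met* 0.01 (0.20, adjusted p = 0.98) in the same comparison.

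Of 66 other genes on the lists of lysine methyltransferases and demethylases, 64 were tested. These lists go by family and include *Setd3*, the gene of the actin histidine methyltransferase, so not all of them are lysine enzymes. In the edgeR test 0 were called in soleus against EDL, where 0.978% of all genes were, and 0 in soleus against psoas, where 0.0762% were, so that counts of 0 do not set these enzymes apart from other genes. Of the 64, 3 and 5 had an unadjusted p under 0.05, respectively, and DESeq2 called 0 and 1. The 1 was *Eef1akmt1*, an elongation factor methyltransferase, at 468, 469 and 492 in soleus, 188 to 310 in EDL and 81.0 to 216 in psoas, and for soleus against psoas its log2 fold change was 1.52 (standard error 0.27, edgeR adjusted p = 0.023). It was named after its values were seen.

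In psoas against EDL, 2 of the 64 rose and 1 fell in the edgeR test, a share near the 4.93% of all genes called there. Of the 64, 27 had an unadjusted p under 0.05 in this comparison, and DESeq2 called 4. The share of all genes at that unadjusted p is not given here. *Kmt2d*, a histone H3 lysine 4 methyltransferase gene, was 514, 486, 207, 299 and 180 in EDL replicates 1 to 5 and 1297, 954, 800, 802 and 693 in psoas replicates 1 to 5, without overlap. It rose by 1.42 on the log2 scale (standard error 0.29, edgeR adjusted p = 0.0061). *Kdm6b*, an H3 lysine 27 demethylase gene, rose as well (1.32, 0.29, adjusted p = 0.0083), and *Mettl22*, a seven-beta-strand enzyme gene of the same class as *Mettl21c*, fell (-1.21, 0.25, adjusted p = 0.0064). The fits that left out a library called between 0 and 4 of the 64, and the calls of *Kdm6b*, *Mettl22* and *Kmt2d* were lost in 12, 7 and 5 of these 13 fits. With the replicate number as a block the count was 8.

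By list, the medians for psoas against EDL were 0.46 over 30 SET domain and Dot1l genes and 0.52 over 20 demethylases, beside 0.02 over all genes. The medians were -0.20 over the 12 seven-beta-strand genes other than the members and -1.01 over the 5 members, whose median follows from their choice. Among the SET domain genes, a list without the SMYD genes, 24 of 30 had a positive log2 fold change. The share of all genes with a positive one is not given here. All 5 members had a negative one, that of *Smyd3* being -0.25 (standard error 0.24). Since the members were chosen with these contrasts known, nothing is read from their sign. *Smyd4* and *Smyd5*, the remaining SMYD genes, were not called in any comparison by edgeR or DESeq2.

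**Figure D5:**
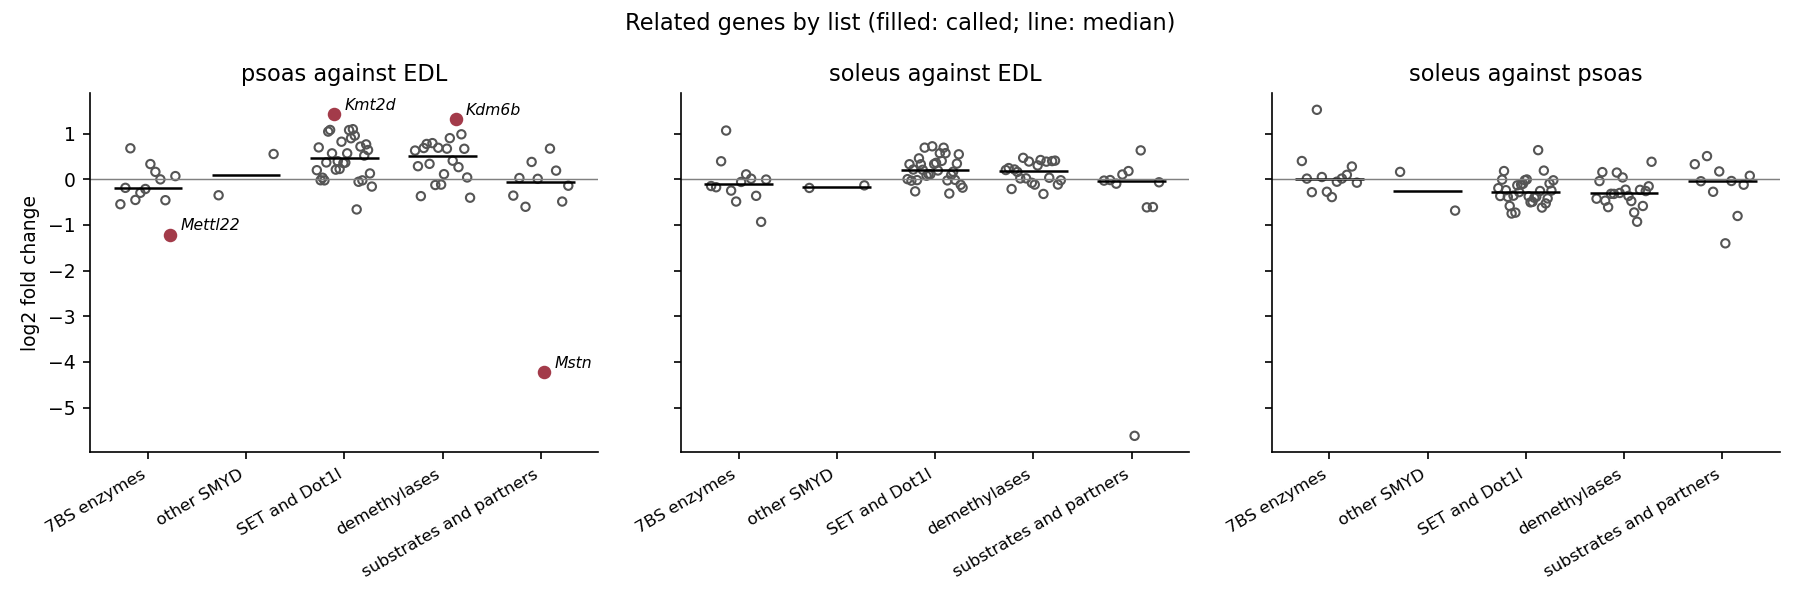
Log2 fold changes of each tested gene on 5 lists in the 3 comparisons between *mdm* muscles, with filled points for genes called in edgeR at the limits given above and a line at the list median. *Kmt2d*, *Kdm6b*, *Mettl22* and *Mstn* were called in psoas against EDL, and 0 in the soleus comparisons.

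For *Smyd1* and *Smyd2*, which were both lower in psoas than in EDL on average, RefSeq promoters were given, and the 250 bases before the start are shown with each CG dinucleotide in capitals (both strands read alike, 5′ to 3′ along the gene). They lie on the reverse strand of GRCm38.p6 at chr6:71262282-71262531 and chr1:189922292-189922541. The *Smyd1* stretch lies inside the GENCODE span of the gene given above, and that of *Smyd2* overlaps the span of its gene. The RefSeq starts therefore differ from the outermost GENCODE starts.
Smyd1: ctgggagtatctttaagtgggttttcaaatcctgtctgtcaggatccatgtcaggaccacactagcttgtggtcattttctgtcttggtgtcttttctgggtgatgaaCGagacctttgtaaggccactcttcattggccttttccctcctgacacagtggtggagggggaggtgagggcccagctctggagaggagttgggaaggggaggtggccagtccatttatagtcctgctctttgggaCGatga
Smyd2: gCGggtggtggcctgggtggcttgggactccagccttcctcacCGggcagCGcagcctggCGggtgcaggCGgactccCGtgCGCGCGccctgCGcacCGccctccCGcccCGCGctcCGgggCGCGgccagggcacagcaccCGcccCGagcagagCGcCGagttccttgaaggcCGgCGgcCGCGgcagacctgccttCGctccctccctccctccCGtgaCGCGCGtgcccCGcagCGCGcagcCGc
The *Smyd1* promoter held 2 CG dinucleotides and 51.6% G and C, and that of *Smyd2* held 34 and 78.8%, beside medians of 6 and 52.4% over 32841 promoters. Of these, 18.8% had fewer CG dinucleotides than *Smyd1* and 96.5% fewer than *Smyd2*. Neither stretch held CANNTG, the E-box core bound by myogenic factors, which 66.2% of all promoters held in this window. That says only that these letters are not in these 250 bases.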

How the data were processed

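RNA-seq counts of 13 *mdm* libraries were used. Per the submitters' processing notes and the study's methods, the authors checked reads with FastQC, trimmed libraries of low base quality with Trimmomatic (0.32), estimated insert sizes with BWA and Picard on mm10, and aligned paired reads of 75 bases to GRCm38.p4 with TopHat (2.1.1). The deposited values are whole-number counts per gene, made with GenomicAlignments, and a normalized signal, the count divided by a DESeq2 size factor that the authors computed with further libraries. In each library the deposited counts and signal had a constant quotient (largest relative deviation 5.22e-15). The overlap mode and strand setting are not given in the sources used here. Total counts ran from 9114176 to 48835209 per library, counting error at a member's lowest count of 12 is large, and no unique molecular identifiers were used, so counting errors are lower limits.

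Of 17924 genes, 17833 matched GENCODE M21. The 17069 genes that reached a normalized count of 10 in 3 or more libraries entered edgeR 4.0.16 in R 4.3.3 (quasi-likelihood fit, TMM, muscle as the only factor, all libraries). The limits for calls were 0.01 for the Benjamini-Hochberg adjusted p and 1 for the size of the log2 fold change. Standard errors follow from the log2 fold change and the F value. Log2 CPM used a prior count of 2. DESeq2 1.42.0, other size factors, no filter, the condition code as a block, and leaving out each library were alternatives. The study's model also had the sequencing run, which the labels do not name. P-values measure the spread between these libraries, which the study calls biological replicates. The main fit takes the libraries as independent, although libraries of different muscles may share a mouse. No 2 libraries of a muscle were duplicates (smallest chi-square per degree of freedom 56.5 over 23 pairs). In simulated counts of 15164 genes, 200 were changed in psoas and 200 in soleus. Of these, edgeR recovered 99.5% for psoas against EDL and for soleus against EDL, with 1 false call each. Every simulated gene had the same spread, not taken from these libraries, and the changes were large. These shares therefore do not measure how many real changes are found.

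The members and gene lists were chosen with earlier results of these data known. Genes were named by 1 rule: the members, of each list up to 4 called genes per comparison by size of change (a selection of which is given), all substrates and partners, the 10 genes most like *Mettl21c* and 3 for each other member by Pearson's r, and tested neighbours within 250 kb. Deviations of same-numbered EDL and psoas libraries from their muscle means correlated by 0.407, 0.370, 0.316, 0.289 and 0.371. The replicate number was therefore used as a block in 1 alternative. Replicate 1 differs in age between the muscles, so it is not a pair from 1 mouse, although its correlation was the highest. Numbers 2 to 5 share age and code between EDL and psoas, and whether they mark 1 mouse is not stated. The study took its muscles, wild-type ones included, from fewer mice than it had libraries. Some of its libraries therefore share a mouse, and which ones is not stated. Numbers shared with soleus were not used as a block. They correlated by 0.11 to 0.42 for numbers 1 and 2, and by -0.16 and -0.30 for number 3. Sequences came from GENCODE transcripts and RefSeq promoters, given for 2 of the 5 members. Python 3.11.15, pandas 2.3.3, numpy 2.4.6, Biopython 1.88 and matplotlib 3.10.9 were used. The result of 1 further marker list is not reported here.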

Additional observations from a re-analysis of the deposited data

Results flagged for a closer look

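In 2 of 10 groups of 5 libraries (each member in EDL and in psoas), 1 library lay far from the others by Dixon's criterion, which chance meets in about 1 in 20 groups. *Mettl21c* in EDL was 631.0 in replicate 1, against 281 to 345 in the other 4. That library is the only one with code T1, has the highest total count (48835209), and had *Myh7* at 11097 and *Hspa8* at 33083, both the highest of the EDL libraries. *Mettl21e* in psoas was 126.8 in replicate 5, against 16.5 to 35.8 in the other 4. It was the psoas library with the highest *Myh4* (36779), *Mstn* (55.5) and *Pvalb* (9617), while replicate 4 of the same code and age had *Myh4* at 35035, *Mstn* at 46.9 and *Mettl21e* at 16.5. The cause of either value was not tested.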

How the results depend on the processing

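The 15 log2 fold changes of the members kept their direction under other normalizations, no filter, DESeq2, the code as a block and the replicate block, except that *Smyd3* for soleus against psoas became 0.17 with the code as a block, and *Smyd1* for soleus against EDL reached 0.02 without soleus replicate 3. All 195 values without 1 library were within 1 SD of the value with all. Leaving out 1 of 3 or 5 libraries can hardly move a mean further, so nothing is read from this. Counts of called genes moved more. For psoas against EDL, 415 genes were higher and 426 lower, against 812 and 774 with DESeq2, 702 higher with the replicate block, and 261 lower with EDL and psoas libraries alone without the block (chosen after seeing the data). For soleus against EDL, 91 were higher and 76 lower, against 270 and 363 with DESeq2 and 31 higher with the code as a block. For soleus against psoas, 12 were higher and 1 lower (*Myh8*), against 95 and 76 with DESeq2 and 4 and 2 with the code as a block. Leaving out a library gave 170 to 402 higher and 147 to 449 lower for psoas against EDL (the lowest without EDL replicate 3), 17 to 90 higher and 2 to 92 lower for soleus against EDL, and 3 to 18 higher and 0 to 3 lower for soleus against psoas (the lowest of both without soleus replicate 1). Of the other 64 methyltransferase and demethylase genes, 3 were called in psoas against EDL, 8 with the replicate block, 0 in EDL and psoas libraries alone and 0 to 4 without 1 library, and for soleus against psoas DESeq2 called 1. The replicate block changed no direction among the members. Of the 10 genes most like *Mettl21c*, 3 were among the 10 highest by Spearman's rho (ties included) and 0 within muscles. Within 500 kb, 1 neighbour was called in psoas against EDL, *1500015O10Rik*. With the longest transcript as the length, CPM per kilobase of *Smyd1*, *Smyd2* and *Smyd3* rose by more than 1 SD in some muscles without a change of order. Where counts moved, the cause was not tested. With 3 soleus libraries and 12 to 52 reads of *Mettl21e* in them, small differences were not detectable.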

Other observations

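*Setd3*, the gene of the actin histidine methyltransferase, belongs to the SET domain list, and its values were not described above. It was singled out after its values were seen. Its normalized counts were 3871 ± 837 in EDL (SD, n = 5), 2450 ± 659 in psoas (SD, n = 5) and 3793 ± 412 in soleus (SD, n = 3). The log2 fold change was -0.66 for psoas against EDL (standard error 0.22, edgeR adjusted p = 0.047), which did not pass the limits. *1500015O10Rik*, which starts between 250 and 500 kb from the METTL21 pair, was at a mean of 522 in EDL, 26.5 in psoas and 163 in soleus, a log2 fold change of -4.32 for psoas against EDL (standard error 0.64, adjusted p = 0.0014).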
